A study of Mus musculus with 6 samples.

Results

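Imprinted genes are expressed mainly from the copy inherited from a single parent, and 40 such mouse genes on the autosomes were followed in 4T1 cells, a mouse mammary carcinoma line. The genes were taken by symbol from a list of well-known imprinted genes, and where a symbol had several rows the row with the highest mean count was used. A row was found for 37 of the 40 among the 31854 rows of the count table, while Mest, Zrsr1 and Kcnq1ot1 had no row of their own name. RNA-seq libraries came from 3 samples of cells with the empty pLVX vector, labelled WT (control), and from 3 samples with pLVX carrying LINC01133, a human long noncoding RNA, labelled as LINC01133 overexpression. All 6 samples were grown in the same medium with serum. The labels do not say whether a group is a clone or a pool, or whether its samples were cultured separately, so the spread behind each p-value may be technical only. "Rose" and "fell" compare the groups and name no cause.

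Imprinted genes lie in domains that share an imprinting control region, a stretch of DNA methylated on a single parental copy since the germ line. Zfp57 and Trim28 protect that methylation in the embryo, and the maintenance enzyme Dnmt1 with its partner Uhrf1 copies it at each cell division. Within a domain, a long noncoding RNA such as Airn or Kcnq1ot1, made from the paternal copy, can silence neighbouring coding genes on the same copy. Many imprinted genes act on growth: Igf2 is a fetal growth factor, and Igf2r encodes the receptor that clears it and carries lysosomal enzymes. Counts per gene do not separate the parental copies, so none of the values below measures imprinting itself. In these bulk samples, fewer expressing cells and less RNA per cell cannot be told apart.

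Promoter sequences are shown for 5 tested members with more than 1 control read, the 4 with the highest and the 1 with the lowest fold change. These are Ppp1r9a, Igf2r, Phlda2, Zdbf2 and Mkrn3, and Airn, the antisense partner of Igf2r, is shown too. Each sequence runs from 250 bases before to 50 bases after a RefSeq start on GRCm38.p6, the assembly of mm10, in the direction of transcription, with CpG sites in capitals. Zdbf2 is shown at both of its starts, and Ppp1r9a at the start with more CpG sites.
Igf2r, chr17:12769657-12769956, minus strand: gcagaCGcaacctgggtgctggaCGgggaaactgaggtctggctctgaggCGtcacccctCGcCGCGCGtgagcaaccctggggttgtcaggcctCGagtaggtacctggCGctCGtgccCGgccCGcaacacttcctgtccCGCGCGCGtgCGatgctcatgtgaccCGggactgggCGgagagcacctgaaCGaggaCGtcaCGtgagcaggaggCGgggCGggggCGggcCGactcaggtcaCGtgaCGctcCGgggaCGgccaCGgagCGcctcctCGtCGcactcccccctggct
Airn, chr17:12741061-12741360, plus strand: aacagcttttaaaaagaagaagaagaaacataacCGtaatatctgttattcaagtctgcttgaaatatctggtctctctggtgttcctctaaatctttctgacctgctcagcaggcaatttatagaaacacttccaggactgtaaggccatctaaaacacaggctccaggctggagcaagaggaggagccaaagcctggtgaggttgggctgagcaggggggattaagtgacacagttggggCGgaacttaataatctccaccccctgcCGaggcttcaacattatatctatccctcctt
Phlda2, chr7:143502475-143502774, minus strand: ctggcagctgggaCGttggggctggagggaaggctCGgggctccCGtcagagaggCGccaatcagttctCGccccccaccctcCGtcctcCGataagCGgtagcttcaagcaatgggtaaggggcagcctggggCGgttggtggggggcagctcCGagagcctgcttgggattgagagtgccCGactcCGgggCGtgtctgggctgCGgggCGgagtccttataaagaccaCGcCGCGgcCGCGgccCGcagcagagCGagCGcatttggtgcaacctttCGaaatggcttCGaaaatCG
Ppp1r9a, chr6:4903061-4903360, plus strand: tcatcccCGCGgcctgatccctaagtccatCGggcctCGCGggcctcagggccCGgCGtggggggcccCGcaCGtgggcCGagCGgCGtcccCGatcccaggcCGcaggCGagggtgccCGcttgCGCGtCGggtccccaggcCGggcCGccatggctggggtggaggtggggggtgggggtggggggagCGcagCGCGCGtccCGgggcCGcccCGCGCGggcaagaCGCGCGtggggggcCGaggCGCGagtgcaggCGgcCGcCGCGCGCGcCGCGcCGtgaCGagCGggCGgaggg
Zdbf2, chr1:63200108-63200407, plus strand: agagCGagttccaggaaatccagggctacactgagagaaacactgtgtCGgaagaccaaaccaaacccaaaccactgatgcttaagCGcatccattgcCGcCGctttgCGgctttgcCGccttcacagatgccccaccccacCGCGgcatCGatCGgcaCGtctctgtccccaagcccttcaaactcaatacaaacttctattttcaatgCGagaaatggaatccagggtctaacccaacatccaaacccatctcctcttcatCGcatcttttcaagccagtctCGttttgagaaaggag
Zdbf2, chr1:63273019-63273318, plus strand: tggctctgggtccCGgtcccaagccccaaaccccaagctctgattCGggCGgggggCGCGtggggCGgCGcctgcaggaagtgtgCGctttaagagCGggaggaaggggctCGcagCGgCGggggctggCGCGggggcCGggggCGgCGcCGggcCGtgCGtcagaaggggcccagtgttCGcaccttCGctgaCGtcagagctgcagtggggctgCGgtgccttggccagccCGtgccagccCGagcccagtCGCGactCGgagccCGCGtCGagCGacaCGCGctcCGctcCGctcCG
Mkrn3, chr7:62420104-62420403, minus strand: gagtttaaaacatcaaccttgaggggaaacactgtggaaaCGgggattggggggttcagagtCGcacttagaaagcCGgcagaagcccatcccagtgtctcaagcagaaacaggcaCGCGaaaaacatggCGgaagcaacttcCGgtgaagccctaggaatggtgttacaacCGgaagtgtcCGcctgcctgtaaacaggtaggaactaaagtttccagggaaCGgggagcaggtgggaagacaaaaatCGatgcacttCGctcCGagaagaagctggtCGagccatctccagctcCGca

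The Igf2r window held 34 CpG sites, more than 92.3% of the 32817 mouse promoter windows of the same length, while that of Airn held 3. The count was 26 for Phlda2, 48 for Ppp1r9a, 15 and 38 for the upstream and downstream starts of Zdbf2, and 15 for Mkrn3. The hexamer TGCCGC, which Zfp57 binds when its CpG is methylated, was searched on both strands (TGCCGC and GCGGCA). Of the windows shown, only the upstream start of Zdbf2 held it, at 3 places. Over the 32 members with a window in the table, 10 of 48 windows (20.8%) held the hexamer, against 11.6% of all windows, and the median number of CpG sites was 14.5 against 7. These letters describe the windows and say nothing of their methylation in the cells. CpG sites can carry the methylation of an imprint, but the windows follow gene starts and were not chosen as imprinting control regions. Their CpG numbers therefore do not show where an imprint lies.

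Most genes differed between the groups, so the members are set against that background. Levels are CPM, each count scaled to a common library size, on library sizes scaled by TMM, a normalization that assumes balanced changes, and a gene is called where its adjusted p is under 0.05 (edgeR's quasi-likelihood test, Benjamini-Hochberg over 14116 tested genes). Library totals ran from 25521469 to 33877549 counts. The ribosomal RNA precursor row Rn45s took 25.44 to 27.92% of the control counts and 21.03 to 22.96% of the LINC01133 counts. By TMM 84.9% of tested genes were called, 44.5% higher and 40.5% lower; by library size alone 7847 were called higher and 4228 lower, and the log2 fold change of all genes had a median of 0.29 instead of 0.05. Calls with at least a 2-fold change made up 34.1% (20.3% higher and 13.9% lower), and the 3 values of each group did not overlap in 85.0%. Low counts were not balanced either: of 13780 rows with no control read, 33.5% had a LINC01133 read, and of 9737 rows with no LINC01133 read, 5.96% had a control read, the LINC01133 group being 1.375 times deeper in scaled size. Of the epithelial markers of a carcinoma line, Epcam and Esrp1 had no read in the controls, while the keratin gene Krt8 stood at 145.3 ± 3.82 CPM there (SD, n = 3, as for all ± values below). Of 10 tested epithelial markers 7 were higher and 3 lower, and the markers summed to 155.7 to 164.0 CPM in controls and 389.0 to 397.1 CPM with LINC01133. Most of that rise was Krt18 (mean 2.06 CPM in controls, 158.2 with LINC01133) and Krt8 (217.05 with LINC01133). The 3 lower were the keratin genes Krt5, Krt14 and Krt7 (log2 fold changes -2.69, -2.87 and -1.71). Markers of other cell types also moved. Of 10 fibroblast markers 4 were tested, 1 higher and 3 lower. The 10 summed to 169 to 174.7 CPM in controls and 16.52 to 17.86 CPM with LINC01133, with Lum and Dpt at no read in either group. Most of the control sum was the receptor genes Pdgfrb (mean 106.75 CPM, 0.775 with LINC01133) and Pdgfra (60.2 and 13.6 CPM). Col1a1 also fell, from 3.95 to 1.10 CPM, and Fap, with no control read, was the 1 higher. Leukocyte markers were 4 higher and 1 lower of 5 tested (sums 5.505 to 6.704 and 19.25 to 20.22 CPM, Tyrobp at no read), endothelial markers 3 higher of 3 (sums 0.2915 to 0.9815 and 15.93 to 16.35 CPM, Erg at no read) and adipocyte markers 1 higher of 1 (sums 0.04099 to 0.128 and 1.155 to 1.33 CPM). The part of these cell types in the results below was not tested.

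Most imprinted genes were silent or nearly so in both groups, and those that were expressed went both ways. Only 17 of the 37 genes with a row had enough counts to be tested. Of these, 10 were called higher with LINC01133 and 5 lower, which is 88.2% called beside the 84.9% of all genes. Among the called members, 6 were at least 2-fold higher and 4 at least 2-fold lower, 58.8% beside 34.1%. Of the 6 higher, 4 (Ppp1r9a, Phlda2, Zdbf2 and Rian) had under 1 CPM in every control. The 3 values of each group did not overlap in 16 of the 17, beside 85.0%. Of all tested genes, 44.5% were called higher and 40.5% lower. Among genes listed as expressed from the maternal copy in at least some tissues, 5 of 7 tested were higher and 2 lower. These 2 are the Kcnq1 row and Commd1, whose reads cannot be told apart from those of the paternally expressed Kcnq1ot1 and Zrsr1. The 5 higher include Ppp1r9a, Phlda2 and Rian, each under 1 CPM in every control, and Ube3a, silenced on the paternal copy in neurons. Among those listed as expressed from the paternal copy, 3 of 8 were higher, 3 lower and 2 not called. The 3 higher include Inpp5f, imprinted at an internal promoter. The median log2 fold change of the 17 was 0.30, beside 0.05 for all genes, and their median size without sign was 1.17 beside 0.63. A gene that passes the count filter only in the group where it is high had to differ, so these counts describe the expressed members and not all of them.

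**Figure D1:**
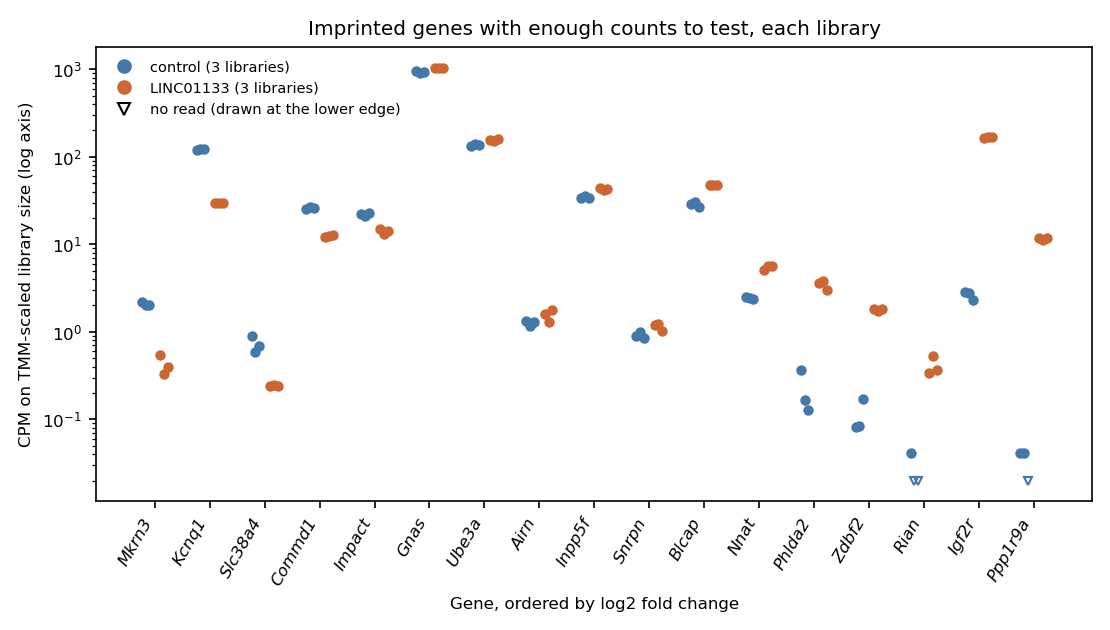
Level of each of the 17 tested imprinted genes in each library, in CPM on a log axis, with 3 control and 3 LINC01133 libraries as points and libraries without a read as open triangles at the lower edge. Igf2r, at the right, went from 2.304 to 2.869 CPM in controls to 165.8 to 167.7 CPM, while Gnas was the most abundant gene in both groups.

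The largest change in abundance was that of Igf2r, whose antisense RNA Airn was not called. Igf2r (uc008aky.1, mm10 chromosome 17, 12682406 to 12769664, minus strand) had 2.869, 2.748 and 2.304 CPM in the 3 controls and 165.8, 166.4 and 167.7 CPM with LINC01133. All LINC01133 values thus lay far above all control values, at 2.64 ± 0.297 and 166.7 ± 0.955 CPM (SD, n = 3). The log2 fold change was 5.98 (SE 0.0594, adjusted p = 1.5e-122, edgeR). Per kilobase of the deposited gene length, Igf2r was 13th of the 17 tested members in the controls (0.296 CPM per kb) and 3rd with LINC01133 (18.7 CPM per kb).

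Airn starts inside Igf2r and runs against it (chromosome 17, 12741311 to 12860136, plus strand); its transcription silences Igf2r on the paternal copy in most mouse tissues. It had 1.312, 1.166 and 1.28 CPM in the controls and 1.597, 1.296 and 1.753 CPM with LINC01133. The groups overlapped, and the difference was not called by TMM (log2 fold change 0.30, SE 0.239, adjusted p = 0.24), but was called higher by library size alone (0.54, adjusted p = 0.03). Per kilobase, Igf2r stood at 0.4411 to 0.5776 times the level of Airn in the controls and at 23.45 to 31.46 times with LINC01133. Whether counting used the strand is not given in the sources used here, so reads of overlapping Igf2r and Airn cannot be told apart. Slc22a3, an organic cation transporter of the same domain imprinted in the mouse placenta, was not tested, with 5 reads over the controls and 9 over the LINC01133 libraries.

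The genes beside Igf2r did not share its rise. Within 1000 kb of its start 15 genes were tested, Igf2r and Airn included. By TMM 11 of them were lower and 2 higher, Igf2r itself and Pnldc1. Of the 3 nearest tested genes on each side of the domain in no imprinted list, here and below its neighbours, 5 of 6 were lower. These included Map3k4, a stress kinase, which went from 115.8 to 41.21 CPM (log2 fold change -1.49), and Tcp1, a subunit of the cytosolic chaperonin, from 963.9 to 475.6 CPM (-1.02). Pnldc1, the nearest on the other side of Airn, was higher at a low level, from 0.5121 to 0.985 CPM.

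The Kcnq1 domain on chromosome 7 moved in opposite directions. Phlda2, which restrains placental growth (uc009kpj.1, chromosome 7, 143501545 to 143503150), had 0.3689, 0.1666 and 0.128 CPM in the controls and 3.601, 3.806 and 2.992 CPM with LINC01133. Every LINC01133 library was above every control library, and the log2 fold change was 3.94 (SE 0.288, adjusted p = 2.3e-26). In counts, 16 reads over the controls stood against 343.

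The row named Kcnq1 fell. It had 119.3, 122.3 and 122.5 CPM in the controls and 29.52, 29.29 and 29.67 CPM with LINC01133 (log2 fold change -2.04, SE 0.0386, adjusted p = 3.4e-88), and the groups were far apart. Its deposited length of 87158 bases is 21.29 times the 4093 exonic bases that GENCODE M21 gives Kcnq1, a potassium channel; in no other member was the deposited length above 1.423 times the exonic bases. Kcnq1ot1, the unspliced noncoding RNA that runs against Kcnq1 and silences the domain on the paternal copy, has 93092 bases in GENCODE and 83437 in RefSeq, and had no row of its own. Reads of the channel gene and of Kcnq1ot1 therefore cannot be told apart in this row.

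Other genes of the domain stayed near the limit of detection. Slc22a18, a transporter, had 24 reads over the controls and 20 with LINC01133, and Ascl2, a transcription factor of the placenta, had 3 and 7. Cdkn1c, the imprinted cell cycle inhibitor of the domain, had 3 and 6 reads. Among genes of the region reported as imprinted in placenta, the tetraspanin Cd81 rose from 2.72 ± 0.344 to 121.7 ± 3.00 CPM (log2 fold change 5.48, adjusted p = 2.5e-113). In the same region Tssc4 and Osbpl5 fell (-0.56 and -0.78) and Nap1l4 rose (0.29). Within 1000 kb of the start of Phlda2, and counting Phlda2 and the Kcnq1 row, 7 of 17 tested genes were higher and 9 lower.

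**Figure D2:**
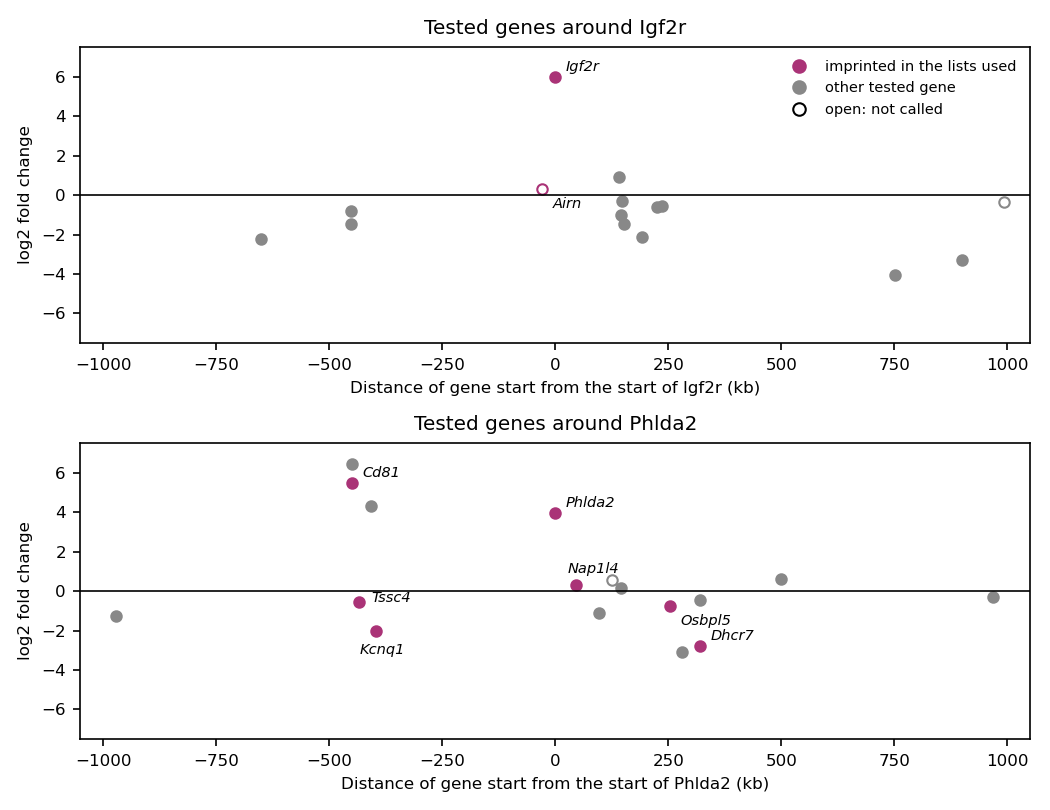
log2 fold change of each tested gene, LINC01133 against control, by the distance in kb of its start from the start of Igf2r (upper panel) or Phlda2 (lower panel). Purple points are imprinted genes of the lists used, grey points other genes, and open points were not called; of the 15 genes around Igf2r, 11 were lower, and Igf2r stands alone above a log2 value of 1.

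In the Peg10-Sgce domain on chromosome 6, the outer gene Ppp1r9a rose from near silence while the genes at the centre stayed low. Ppp1r9a, which encodes neurabin, an actin-binding partner of protein phosphatase (uc009avz.1, chromosome 6, 4902917 to 5165661), had 0.04099, 0.04164 and 0 CPM in the controls and 11.65, 11.17 and 11.81 CPM with LINC01133. In reads that was 2 over the controls against 1139. Divided by the scaled library sizes, which were 1.375 times larger for the LINC01133 group, as in all ratios of reads below, this is a ratio of 414 (exact 95% interval 114 to 3424, counting error only; edgeR adjusted p = 1.3e-58). Sgce, a sarcoglycan, and Peg10, a gene derived from a retrotransposon and needed in placenta, share a promoter region and were not tested. Sgce had 28 reads over the controls and 5 with LINC01133, a depth-scaled ratio of 7.70 lower (exact 95% interval 2.94 to 25.5). Peg10 had 9 and 4 reads, and its interval of 0.864 to 13.7 for the same ratio included no difference. Asb4, which encodes a protein of ubiquitin ligases, had no read in the controls and 4 reads with LINC01133. Casd1, next to Sgce, rose from 40.2 ± 0.663 to 57.7 ± 1.75 CPM. Between Ppp1r9a and Asb4, the listed imprinted gene Pon2 fell (log2 fold change -0.75, edgeR adjusted p = 4.5e-21). Pon3 beside it was not called by TMM (edgeR adjusted p = 0.051) but was called higher by library size alone (0.425).

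Zdbf2, a gene of postnatal growth control in mice (uc033fje.1, chromosome 1, 63273265 to 63314576), rose at a low level. It had 0.08198, 0.08328 and 0.1707 CPM in the controls and 1.8, 1.737 and 1.843 CPM with LINC01133 (log2 fold change 3.96, SE 0.398, adjusted p = 2.7e-17). The groups did not overlap, and 8 reads stood against 177. Gpr1, its neighbour in the same imprinted domain, rose from 0.167 ± 0.0443 to 0.616 ± 0.184 CPM (log2 fold change 1.84, adjusted p = 0.00019).

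The domains of chromosome 2 rose by smaller steps. Nnat, the proteolipid neuronatin (chromosome 2, 157560078 to 157562522), lies inside Blcap on the opposite strand. It had 2.5, 2.415 and 2.347 CPM in the controls and 5.027, 5.654 and 5.651 CPM with LINC01133 (log2 fold change 1.17, SE 0.146, adjusted p = 9.9e-13). Blcap, a small membrane protein gene, had 28.94, 30.4 and 26.63 CPM and 47.86, 47.77 and 47.68 CPM (0.74, SE 0.0501, adjusted p = 7.5e-29). Neither gene's groups overlapped, and Blcap stood at 7.19 to 7.977 times the per-kilobase level of Nnat in controls and 5.348 to 6.034 times with LINC01133. The strand setting of the counting is not given, so reads of overlapping Nnat and Blcap cannot be told apart. All 6 nearest tested neighbours of this domain were higher too, from 0.42 for Rprd1b to 1.23 for the kinase gene Src on the log2 scale.

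Gnas, which encodes the stimulatory G protein alpha subunit from its main promoter and other products from imprinted promoters (uc008oew.2, chromosome 2, 174284320 to 174346744), was the most abundant member per kilobase in both groups. It had 960.6, 899.4 and 920.8 CPM in the controls and 1023, 1042 and 1038 CPM with LINC01133, groups that did not overlap (log2 fold change 0.16, SE 0.0201, adjusted p = 2.6e-12). A second row under the same symbol, 678 bases long (uc033hrr.2), went from 27 to 290 reads (log2 fold change 2.95, SE 0.266, adjusted p = 4.5e-20). Another row (uc008oes.1) had no read in the controls and 7 with LINC01133. The rows are not tied to promoters in the files. All 6 nearest neighbours of Gnas were higher as well, among them Ctsz, a lysosomal protease (53.81 to 192 CPM).

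In the Snrpn-Ube3a domain of chromosome 7, the region of Prader-Willi and Angelman syndromes in humans, Mkrn3 fell while Ube3a rose slightly. Mkrn3, a ubiquitin ligase gene known in humans as a brake on puberty (uc009hfi.1, chromosome 7, 62417593 to 62420139), had 2.213, 2.04 and 2.048 CPM in the controls and 0.5435, 0.3309 and 0.3928 CPM with LINC01133. The groups did not overlap, and the log2 fold change was -2.32 (SE 0.279, adjusted p = 2.1e-13). Ube3a, the ubiquitin ligase silenced on the paternal copy in neurons, had 132.6, 138.6 and 137.6 CPM and 155.6, 152.5 and 159.7 CPM (0.19, SE 0.0283, adjusted p = 4.8e-10).

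Snrpn, a spliceosome protein gene, had 0.9018, 0.9993 and 0.8535 CPM in the controls and 1.189, 1.241 and 1.027 CPM with LINC01133. Its groups did not overlap but it was not called (log2 fold change 0.33, SE 0.271, adjusted p = 0.25), except by library size alone (0.57, adjusted p = 0.044). Ndn and Magel2, known chiefly from the nervous system, had no read in the controls and 1 and 3 reads with LINC01133. Atp10a, a listed imprinted gene beside the domain, rose slightly (0.15, adjusted p = 0.00027). The 6 nearest tested genes in no imprinted list, all more than 1000 kb away, were lower by TMM, among them Herc2 (-0.74) and Klf13 (-1.73). The smallest of these changes was -0.18 for A230056P14Rik, while library size alone moved the median of all genes from 0.05 to 0.29. The direction of so small a change may depend on the scaling.

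The H19-Igf2 and Dlk1-Meg3 domains, which are highly expressed in fetal tissues, were almost silent. H19, a noncoding RNA, had 0 reads over the controls and 3 with LINC01133, at or under the floor of 3 reads, which is 0.04176 CPM over the control group and 0.03037 CPM over the LINC01133 group. Igf2 had 2 reads over the controls and 29 with LINC01133, a depth-scaled ratio of 10.5 (exact 95% interval 2.67 to 91.2), and its highest library had 18 reads.

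On chromosome 12, Dlk1, a membrane regulator of adipocyte formation, went from 0 to 9 reads and the noncoding RNA Meg3 from 0 to 2. Rian, a noncoding RNA that hosts small nucleolar RNAs, was the only member of that domain tested. It had 1, 0 and 0 reads in the controls and 10, 19 and 12 with LINC01133, a depth-scaled ratio of 29.8 (exact 95% interval 5.06 to 1206; edgeR adjusted p = 8.3e-07). Its only control read was in control 1, and without that library the fitted log2 fold change went from 4.51 to 6.61, a value that depends on the prior count. Mirg, which hosts microRNAs, had 0 and 9 reads, and the coding genes Rtl1 and Dio3 of the domain had 0 and 15 and 1 and 22. Thus every named gene of this domain had more reads with LINC01133, at levels where 79.7% of all untested rows with a read also had more. The listed imprinted gene Begain, before Dlk1 on the chromosome, was tested and rose from 4 reads to 211 (log2 fold change 5.15, edgeR adjusted p = 1.7e-21). Of 34 listed small RNA genes of imprinted domains with a row, 32 had no read in any library. These rows are 46 to 158 bases long. Capture of RNA that short by these libraries was not tested, so the missing reads do not show silence.

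**Figure D3:**
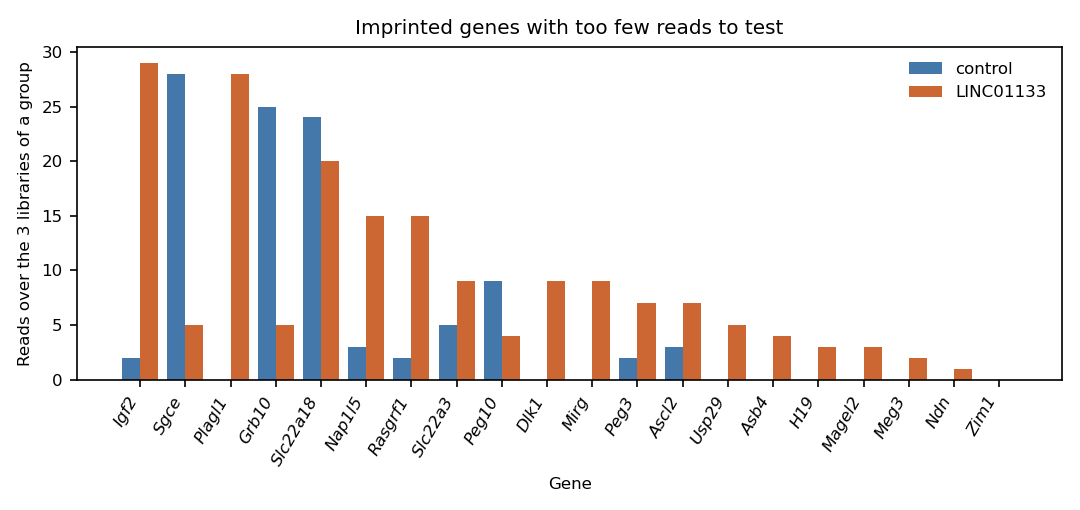
Reads summed over 3 libraries in each group, on a linear axis, for the 20 imprinted genes with too few reads to test. No gene reached 30 reads in either group; Sgce and Grb10 had more in the controls, Igf2 and Plagl1 more with LINC01133, and Zim1 had none.

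The Peg3 domain was silent in the same way. Peg3, a zinc finger gene, had 2 and 7 reads, Usp29 0 and 5, and Zim1 none in any library. Of all untested rows with a read, 79.7% had more with LINC01133, the group being 1.375 times deeper in scaled size. Among the 20 untested members, 15 had more reads with LINC01133, 4 had fewer and 1 had none, and 10 had no read in the controls. Grb10, an adaptor that restrains insulin and IGF signalling, was among those with fewer, at 25 and 5 reads (depth-scaled ratio 6.88 lower, exact 95% interval 2.59 to 23.0). Plagl1, a zinc finger factor, had 0 reads and 28, at least 6.79-fold higher against the floor of 3 reads over the controls. Nap1l5, a nucleosome assembly protein gene, had 3 and 15 reads, and Rasgrf1, a Ras exchange factor, 2 and 15.

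Imprinted genes that stand alone or in small domains completed the expressed members. Commd1, a copper and NF-kB regulator (chromosome 11, 22896136 to 22982382), had 25.13, 26.73 and 26.25 CPM in the controls and 12.26, 12.55 and 12.66 CPM with LINC01133 (log2 fold change -1.06, SE 0.0676, adjusted p = 4.3e-31). Zrsr1 lies within Commd1 on the opposite strand (22972005 to 22976496) and had no row, so reads of both genes cannot be told apart. Slc38a4, an amino acid transporter of placenta and liver, had 0.9018, 0.5829 and 0.6828 CPM and 0.2378, 0.2482 and 0.2417 CPM (-1.56, SE 0.4005, adjusted p = 0.00022).

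The groups of both genes did not overlap. Beside Slc38a4, however, the related transporter genes Slc38a1 and Slc38a2 rose (log2 fold changes 2.84 and 1.05). Impact, which restrains the amino acid sensor kinase Gcn2, fell from 21.97 ± 0.756 to 14.06 ± 1.08 CPM (-0.65, SE 0.0695, adjusted p = 9.3e-16). Inpp5f, a phosphoinositide phosphatase with an imprinted internal promoter, rose from 34.7 ± 1.17 to 42.9 ± 1.11 CPM (0.30, SE 0.0488, adjusted p = 1.1e-08).

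**Figure D4:**
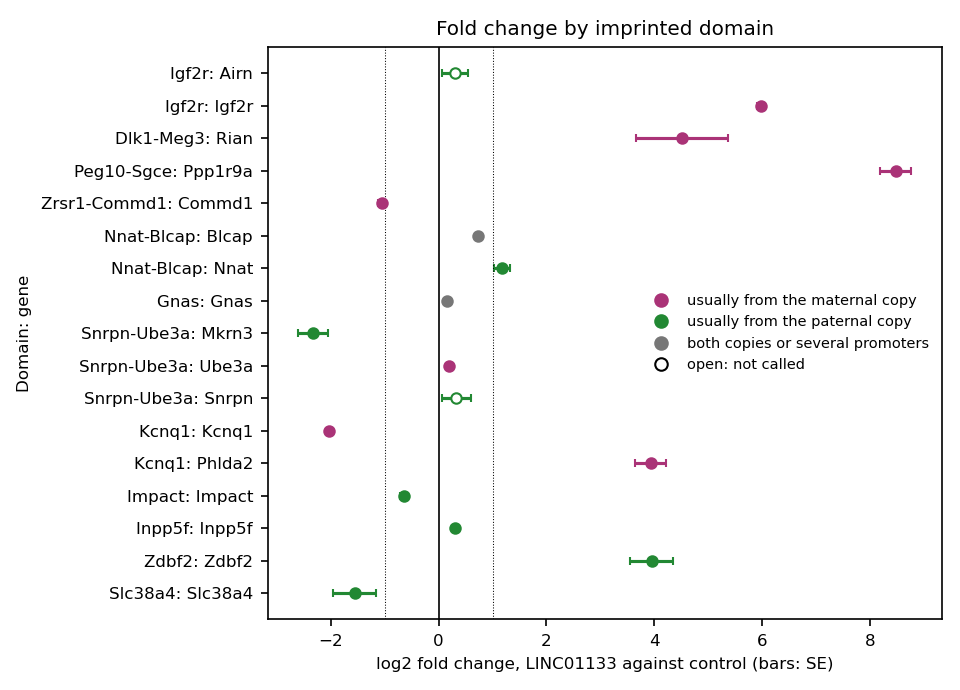
log2 fold change, LINC01133 against control, with its SE, for the 17 tested imprinted genes by domain. Colour gives the parental copy listed as expressed in at least some tissues, open points were not called, and dotted lines mark 2-fold. The Kcnq1 row, whose reads cannot be told apart from those of Kcnq1ot1, and Phlda2 lie on opposite sides of 0. Mkrn3 and Ube3a do so too, and the values of Ppp1r9a and Rian rest on 2 and 1 control reads.

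Among the 19 domains, 12 had a tested member and 4 had more than 1. Of these 4, the Kcnq1 and Snrpn-Ube3a domains held called members in both directions. In the Kcnq1 domain the lower member is the Kcnq1 row, whose reads cannot be told apart from those of Kcnq1ot1. The tested neighbours in no imprinted list, 3 on each side of every domain and at 0.016 to 4896 kb from it, numbered 110, of which 51 were higher and 48 lower. Of these neighbours 39.1% were called with at least a 2-fold change, beside 34.1% of all genes.

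Of a wider list of 40 genes with a row that are reported as imprinted in some mouse tissue, often only the placenta, 25 were tested, and 14 were higher and 10 lower (median log2 fold change 0.18). That is 96.0% called, where 84.9% of all tested genes were called. Gab1, an adaptor of receptor tyrosine kinases, fell from 42.5 ± 0.375 to 0.448 ± 0.201 CPM (log2 fold change -6.59, adjusted p = 4.8e-91). Dhcr7, the last enzyme of cholesterol synthesis, fell from 97.0 ± 0.463 to 13.9 ± 0.542 CPM (-2.80), and Ampd3, an AMP deaminase, from 97.2 ± 1.90 to 30.4 ± 0.731 CPM (-1.68). Smoc1, a secreted matrix protein, fell from 56.2 ± 3.49 to 10.05 ± 1.40 CPM (-2.47), and H13, a signal peptide peptidase, rose from 57.5 ± 2.34 to 121.0 ± 3.54 CPM (1.07). Peg13, a noncoding RNA inside Trappc9, rose from 0.308 ± 0.196 to 6.83 ± 0.145 CPM (4.46, adjusted p = 2.2e-40), while Trappc9 itself fell (-0.53).

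Among factors that set, keep or remove imprints, more were lower than higher, with 13 of 19 tested members lower and 5 higher, where 40.5% of all tested genes were lower and 44.5% higher (median log2 fold change -0.50). By library size alone 11 were lower and 7 higher (median -0.25). Dnmt1 fell from 470.1 ± 5.65 to 285.2 ± 3.59 CPM (-0.72, adjusted p = 1.1e-62) and Uhrf1 from 401.2 ± 11.9 to 189.6 ± 2.02 CPM (-1.08). Smchd1, a chromatin protein that acts on the inactive X chromosome and on imprinted clusters, fell from 348.9 ± 2.60 to 143.5 ± 2.93 CPM (-1.28), and Hells, a chromatin remodeller, from 181.9 ± 4.01 to 78.0 ± 2.87 CPM (-1.22).

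Also lower were the H3K9 methyltransferase genes Ehmt2 (-0.96) and Setdb1 (-0.73), and Tet1, a dioxygenase that oxidises methylated cytosine (-2.71, from 2.54 ± 0.325 to 0.393 ± 0.131 CPM). Zfp57 fell from 18.3 ± 0.917 to 12.9 ± 0.215 CPM (-0.51, adjusted p = 3.9e-10). Its partner Trim28 was lower by TMM (-0.13, adjusted p = 4.8e-09) and higher by library size alone (0.11). Ctcf, the insulator protein of the H19-Igf2 domain, was at 115.2 ± 1.03 and 116.2 ± 1.33 CPM and was not called (adjusted p = 0.69), although it was called higher by library size alone (0.26).

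The other 5 called factors went the other way: Dnmt3b, Ctcfl, Tet2, Tet3 and Zfp445. Tet2 and Tet3, dioxygenases like Tet1, rose from 8.92 ± 0.467 to 13.9 ± 0.579 CPM (0.63) and from 96.9 ± 4.51 to 111.6 ± 3.01 CPM (0.20). Zfp445, a zinc finger protein that acts with Zfp57 at imprints, rose from 100.5 ± 1.90 to 112.6 ± 2.11 CPM (0.16). Dnmt3b, a de novo methyltransferase, rose from 0.305 ± 0.0907 to 6.61 ± 0.856 CPM (4.41, adjusted p = 1e-39), while Dnmt3a fell (-0.50). Ctcfl, the germ-line paralog of Ctcf, had no read in the controls and 68, 76 and 68 reads with LINC01133, at least 51.4-fold higher against 3 reads over the control group (edgeR adjusted p = 3.8e-24).

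Of the genes around the growth factor Igf2, 5 of 10 tested were higher and 4 lower, close to the 44.5% and 40.5% of all tested genes. By library size alone 6 were higher and 3 lower. The receptor gene Igf1r rose from 236.9 ± 3.71 to 272.3 ± 5.29 CPM (0.20, adjusted p = 2e-13). Insr, the insulin receptor, fell by TMM (-0.25, adjusted p = 6.1e-10) and was not called by library size alone (adjusted p = 0.96). Irs1, the docking protein of both receptors, fell from 201.1 ± 4.49 to 24.4 ± 1.35 CPM (-3.05, adjusted p = 1e-112).

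The RNA-binding proteins named for Igf2 mRNA diverged. Igf2bp1 fell from 83.6 ± 4.07 to 1.79 ± 0.385 CPM (-5.52, adjusted p = 1.1e-103), and Igf2bp2 rose from 85.2 ± 3.49 to 116.7 ± 2.59 CPM (0.45, adjusted p = 5.1e-27). Igf2bp3 was at 4.07 ± 0.908 and 4.28 ± 0.455 CPM and was not called (adjusted p = 0.62), except by library size alone (0.32, adjusted p = 0.03). Among the binding proteins, Igfbp4 fell (-0.38) and Igfbp6 rose (1.98). Pappa2, a protease that cuts such binding proteins, rose from 0.1399 ± 0.0667 to 1.61 ± 0.496 CPM (3.50, adjusted p = 1.4e-14).

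**Figure D5:**
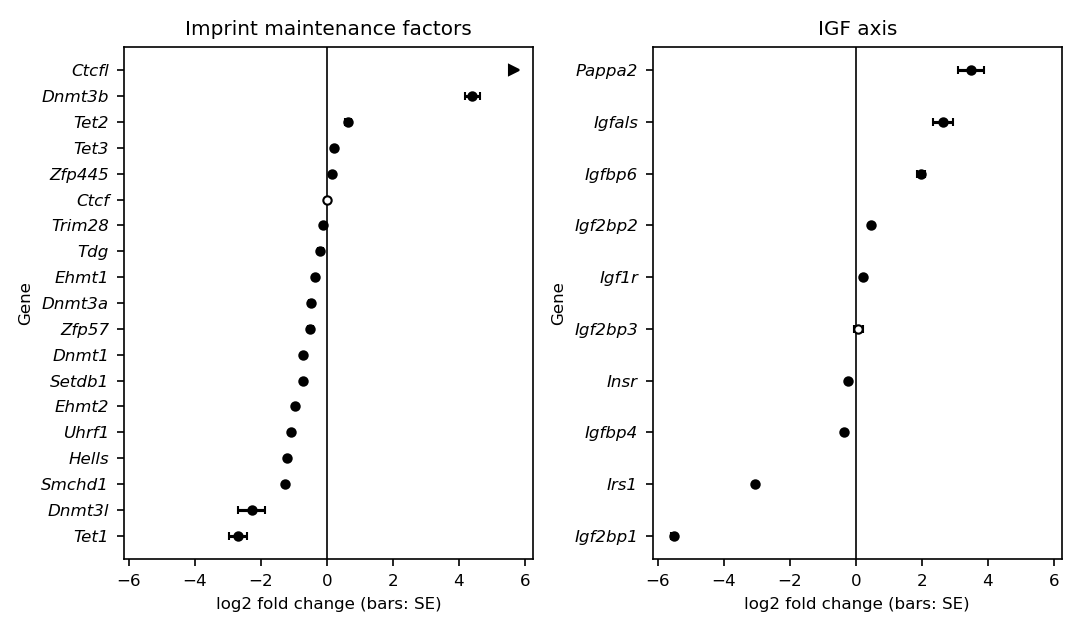
log2 fold change with its SE, LINC01133 against control, for the tested imprint maintenance factors (left) and genes of the IGF axis (right); open points were not called, and the triangle of Ctcfl marks a lower bound. Dnmt1, Uhrf1, Smchd1 and Tet1 lie below 0 and Dnmt3b and Ctcfl above; Igf2bp1 is the lowest gene of the right panel.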

How the data were processed

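What the authors deposited for the 6 RNA-seq libraries is 1 table of whole-number counts by gene, not normalized, with each row's length in bases, per the file headers. Libraries were made from total RNA with an Illumina TruSeq kit, per the labels' protocols; per the submitters' processing notes, the build was mm10 and bcl2fastq was used. Aligner, counter, annotation and strand setting: not given in the sources used here. The number of columns of no sample was 0.

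Genes were tested with edgeR 4.0.16 (R 4.3.3): TMM, filterByExpr, quasi-likelihood F test with robust dispersions, over 14116 genes, after a check on simulated counts. SEs of log2 fold changes are their size divided by the root of F. Ratios of few reads are scaled by the TMM library sizes and have exact conditional 95% intervals, and floors are 3 counts; both cover counting error only, and 3 counts in a library are 0.0827 to 0.128 CPM. Within a group, replicate pairs differed by a chi-square of 1.608 to 2.318 per degree of freedom over rows with at least 20 counts (leaving out Rn45s), above sampling noise. Each library counted as 1 replicate, although this value cannot tell separate cultures from repeat libraries of the same culture. Positions are from GENCODE M21 (GRCm38), promoters from RefSeq.

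The members and lists were chosen with earlier results of these data known. Named were all members, those at least 2-fold different with each library's value, the 6 genes of lowest p from the wider imprinted, imprint factor and IGF lists, and fixed genes (Cdkn1c, Dnmt1, Zfp57, Trim28, Ctcf, Igf1r, Insr, Igf2bp1 to Igf2bp3). Marker lists are given as counts and sums with a few members. The other genes named from these lists, the markers and the neighbours named singly were chosen after their values were seen. Alternatives were other scalings and count filters, the replicate number as a block, DESeq2 1.42.0, limma voom (3.58.1), dispersions without the robust option, an adjusted p under 0.01, summed rows of a symbol, no Rn45s row and each library left out. The LINC01133 transcript was not analysed here and so cannot check the labels. Plots used matplotlib 3.10.9.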

Additional observations from a re-analysis of the deposited data

How the results depend on the processing

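The 17 tested members kept their direction in all 303 values under 18 alternatives, and 301 also kept their side of the threshold; Rian was not tested with Rn45s left out, and Rian and Slc38a4 were not tested under a filter of 1 CPM in 3 libraries. The called members were then 9 higher (5 at least 2-fold) in both cases, and 4 lower (3 at least 2-fold) under the CPM filter. Only 3 members were at least 2-fold lower by library size or upper quartile, where Commd1 stood at -0.82 and -0.96. Airn and Snrpn were called higher by library size alone (log2 fold changes 0.54 and 0.57). The counts of called members were 10 higher and 5 lower with each library left out, and 6 and 4 at least 2-fold. Without a count filter, 10 members were at least 2-fold higher instead of 6, since members with few reads were then tested (14 called higher and 7 lower). All genes called were 6228 to 6379 higher and 5632 to 5669 lower with a library left out. With the replicate number as a block, the counts of called members were 10 higher and 5 lower. Same-numbered samples showed no shared deviation (correlations of -0.026 to 0.011), which cannot show that the numbers pair nothing. Depth limits the 20 untested members, for which a difference was mostly not detectable.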
